A study of Mus musculus with 4 samples.

Results

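NRF2 is the transcription factor through which cells answer oxidants and electrophiles. Its gene and 9 genes of its pathway were followed here through the accessibility of the chromatin around them. The 10 genes were Nfe2l2 (which encodes NRF2), Keap1, Nqo1, Hmox1, Gclc, Gclm, Txnrd1, Srxn1, Slc7a11 and Osgin1. Every peak whose assigned gene was one of these was taken, whatever its value, which gave 59 of the 70436 peaks in the table. A peak was assigned to the gene of its nearest transcription start site (TSS), so a distant peak is named for the nearest gene and not for a gene it is known to act on.

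The assay was ATAC-seq, in which a transposase cuts and tags open DNA, so that more tags in a region mean more accessible chromatin. The cells were melb-a, a mouse line labelled as melanoblasts (the embryonic precursors of pigment cells) and as wild type in genotype. The Hira shRNA group held 2 libraries, with hairpins I and II against Hira, the gene of a chaperone that places the histone variant H3.3 into chromatin. The control shRNA group held 2 libraries, with hairpins against luciferase and of scrambled sequence. All 4 cultures received lentivirus with polybrene and were selected with puromycin, and cells without virus were not analysed here. Each hairpin had 1 library, so the effect of a hairpin, of its culture and of its library cannot be told apart.

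In unstressed cells KEAP1 holds NRF2 and hands it to a CUL3 ubiquitin ligase for destruction. Oxidants and electrophiles modify cysteines of KEAP1, NRF2 then accumulates, pairs with a small MAF protein and binds antioxidant response elements. Its targets import cystine, make glutathione, regenerate thioredoxin and peroxiredoxin, and break down quinones and haem. Pigment cells make reactive intermediates while they synthesise melanin, and this pathway is part of their defence.

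The promoters of the genes with a called change near the start site or with the most peaks are shown first, with the NRF2 gene itself. Each sequence is the 250 bases before the TSS in RefSeq's GRCm38.p6 annotation (the mm10 build), read 5′ to 3′ on the strand of the gene and ending at the base before the start. Capitals mark the antioxidant response element core, searched on both strands as TGACNNNGC and in a second form as TGAGNNNGC, and in Slc7a11 also the amino acid response element TGATGCAAN. The Nfe2l2 stretch is chr2:75704664-75704913 on the minus strand, that of Srxn1 is chr2:152105274-152105523 on the plus strand, that of Slc7a11 is chr3:50443614-50443863 on the minus strand, and that of Osgin1 is chr8:119436897-119437146 on the plus strand.
Nfe2l2: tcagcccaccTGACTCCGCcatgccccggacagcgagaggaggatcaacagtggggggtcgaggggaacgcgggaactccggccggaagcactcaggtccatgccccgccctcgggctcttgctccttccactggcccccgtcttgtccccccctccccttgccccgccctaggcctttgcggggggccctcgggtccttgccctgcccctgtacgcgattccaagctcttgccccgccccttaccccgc
Srxn1: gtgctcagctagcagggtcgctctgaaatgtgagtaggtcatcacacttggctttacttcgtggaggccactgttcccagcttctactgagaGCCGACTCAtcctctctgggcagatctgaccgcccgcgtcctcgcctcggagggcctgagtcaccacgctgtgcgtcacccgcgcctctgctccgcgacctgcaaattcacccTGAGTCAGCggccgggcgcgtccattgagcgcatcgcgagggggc
Slc7a11: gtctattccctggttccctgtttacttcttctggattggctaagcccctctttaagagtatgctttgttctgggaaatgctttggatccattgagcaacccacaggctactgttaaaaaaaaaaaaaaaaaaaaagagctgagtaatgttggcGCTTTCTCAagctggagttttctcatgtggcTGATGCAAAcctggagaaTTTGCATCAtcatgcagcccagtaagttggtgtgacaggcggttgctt
Osgin1: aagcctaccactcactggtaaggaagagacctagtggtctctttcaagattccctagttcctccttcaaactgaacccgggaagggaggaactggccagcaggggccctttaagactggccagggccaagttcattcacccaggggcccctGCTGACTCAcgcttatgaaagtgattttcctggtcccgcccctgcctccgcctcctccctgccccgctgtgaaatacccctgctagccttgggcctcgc
For Gclm and Txnrd1 only the match and its flanks are shown, at chr3:122245413-122245441 and chr10:82859104-82859132, both on the plus strand.
Gclm: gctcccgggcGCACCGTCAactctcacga
Txnrd1: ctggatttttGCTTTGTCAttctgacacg

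The promoter table held windows of 300 bases (250 before and 50 after the TSS) for 8 of the genes, 10 windows in all because Txnrd1 has several starts. Hmox1 and Gclc had no window there, so their promoters were not searched. The first form of the core lay in 4 of these 10 windows, against 12.4% of all 32851 mouse promoter windows. In Nfe2l2 it began 240 bases before the TSS, in Gclm 134 and in Txnrd1 92 bases before, and in Srxn1 29 bases after the TSS. The second form lay in 3 of the 10 windows, against 17.6% of all windows: in Srxn1 158 and 45 bases before the TSS, in Osgin1 99 and in Slc7a11 97 bases before. In Srxn1 at 45 bases and in Osgin1 the second form overlaps an AP-1 word, TGANTCA, which 7.81% of all windows hold. The Slc7a11 promoter carries an inverted pair of amino acid response elements, beginning 66 and 48 bases before the TSS, and 0.889% of all windows hold this word. The second form, the AP-1 word and the amino acid word were added after the sequences had been read. These matches describe letters in a window and show no binding.

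Tags in peaks numbered 14718721 and 8910983 for Hira hairpins I and II, and 20716859.5 and 15804532 for the luciferase and scramble controls. The chi-square per peak between the libraries of a group was 6.24 for the Hira pair and 0.935 for the control pair, which thus differed by less than sampling noise. For levels the control pair was therefore counted as 1 sample: Hira levels are given as mean ± SD with n = 2 and a control level is a single value. The SE, p and calls come from a fit that keeps all 4 libraries, and calls with the controls summed are given beside them. The 4-library fit counts the control pair as 2 libraries, so its SE and p may be too small. Levels are in CPM, which sets the tags of a peak against the tags of the library in all peaks, scaled by edgeR's TMM factors. Of the melanoblast markers, 10 of 11 had a peak and 8 had one within 1 kb of the TSS, and the level summed over their peaks was 1342 and 1567 CPM in the Hira libraries, against 1710 and 1697 CPM in the controls. Fibroblast markers had peaks for 10 of 10 genes but within 1 kb of the TSS for 3, with sums of 539 and 440 CPM in the Hira libraries, against 375 and 366 CPM in the controls. Keratinocyte markers had no peak within 1 kb of a TSS, and Krt5 and Krt1 had no peak assigned. Schwann cell and glia markers had peaks for 6 of 6 genes, and within 1 kb of the TSS also for 6. Their sums were 413 and 497 CPM in the Hira libraries, against 520 and 530 CPM in the controls. The part of these shifts in the results that follow was not tested. The Hira promoter peak gives no check of the knockdown: it held 62.8 and 73.3 CPM in the Hira libraries, against 72.5 and 72.2 CPM in the controls (log2 fold change -0.09, SE 0.09, adjusted p = 0.486).

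Fold changes are log2, Hira shRNA over control shRNA, and each adjusted p comes from edgeR's quasi-likelihood test over the 70429 peaks tested, with 0.05 as the threshold for a call. These p-values measure the spread between these libraries, most of which comes from the Hira pair. When the control libraries were summed to 1 sample, edgeR's quasi-likelihood test called no peak of the set, with 12 peaks at an unadjusted p under 0.05. Over the whole table that fit called no peak either, so it does not set the NRF2 peaks apart from the rest. With the controls summed, edgeR's likelihood ratio test called 9 of the 59 peaks (12.2% of all peaks) and its newer quasi-likelihood estimate called 10 (14.1% of all peaks). On the 4 libraries, the likelihood ratio test called 22 of the 59 (34.2% of all peaks) and DESeq2's Wald test called 13 (17.7% of all peaks).

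Of the 59 peaks, 17 were called (28.8%), 11 higher and 6 lower in Hira shRNA, and 42 were not. Over all peaks tested 25.3% were called, 14.4% higher and 11.0% lower, so the share in the set was near the background. The median log2 fold change was 0.04 in the set and 0.002 over all peaks, and the median absolute change was 0.26 in the set and 0.40 over all peaks. The Hira and control libraries did not overlap at 39 peaks (66.1%, against 68.8% of all peaks), 19 above (34.5% of all peaks were) and 20 below (34.3% of all peaks were). Scaling mattered for direction: with the library sizes recovered from the authors' fold changes, 16 peaks of the set were called, 5 higher and 11 lower (30.1% of all peaks, 11.1% higher and 19.0% lower), and 11 of these were among the 17. Under that scaling the median log2 fold change was -0.21 in the set and -0.26 over all peaks.

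**Figure D1:**
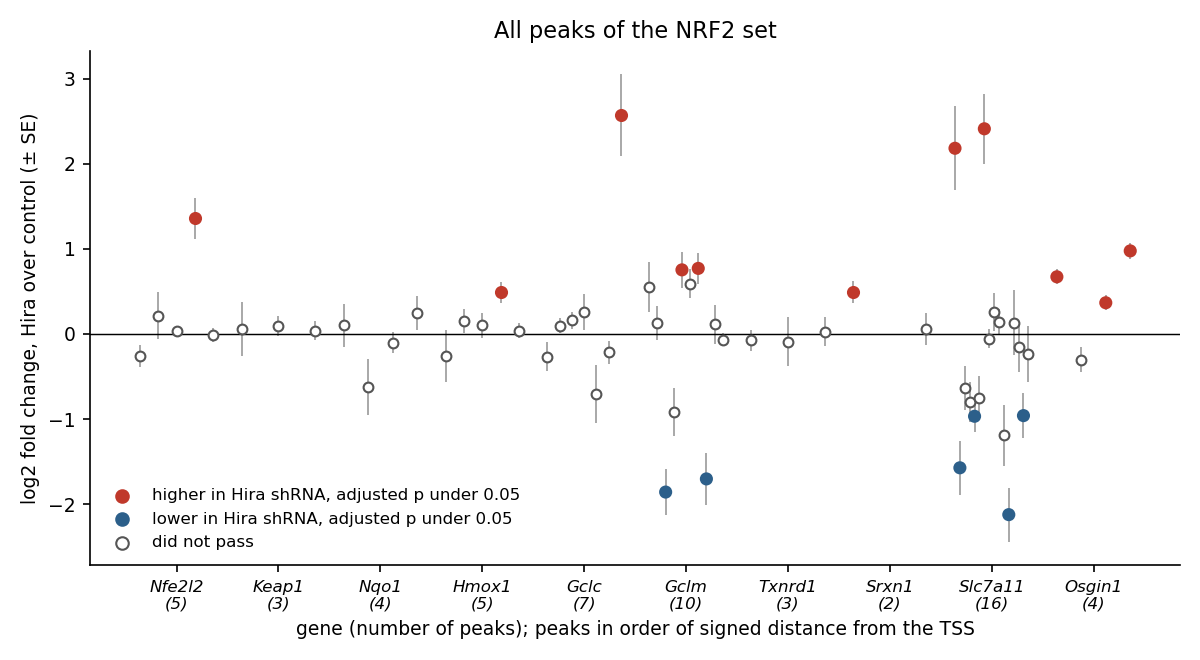
Log2 fold change (Hira shRNA over control shRNA, CPM with TMM scaling) of all 59 peaks by gene, with the SE as bars and with filled points for called peaks. Slc7a11 and Gclm have called peaks on both sides of 0, the called peaks of Nfe2l2, Hmox1, Gclc, Srxn1 and Osgin1 lie above 0, and Keap1, Nqo1 and Txnrd1 have none.

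The called peaks fell on 7 of the genes, a count that has no share over all genes beside it. Nfe2l2, Hmox1, Gclc, Srxn1 and Osgin1 had only higher calls, Gclm and Slc7a11 had calls in both directions, and Keap1, Nqo1 and Txnrd1 had none, as the plot of all peaks by gene shows. Keap1, Nqo1 and Txnrd1 also had no peak at an unadjusted p under 0.05 and no call by DESeq2, the likelihood ratio test or limma-voom. Within 1 kb of a TSS 2 of 11 peaks were called, both higher, against 7.45% of all peaks at that distance (5.32% higher and 2.14% lower). Between 1 and 10 kb 2 of 12 were called, both higher, against 26.8% of all such peaks (16.5% higher and 10.4% lower). Beyond 10 kb 13 of 36 were called (36.1%), 7 higher and 6 lower, against 29.7% of all such peaks (16.2% higher and 13.6% lower). These 13 were 10 of 29 peaks up to 100 kb away, where 28.9% of all peaks were called, and 3 of 7 farther out, where 33.2% were called. The 6 lower calls all lay beyond 10 kb, at Gclm and Slc7a11. Without the 16 peaks of Slc7a11, 11 of 43 peaks were called (25.6%), 9 higher and 2 lower.

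**Figure D2:**
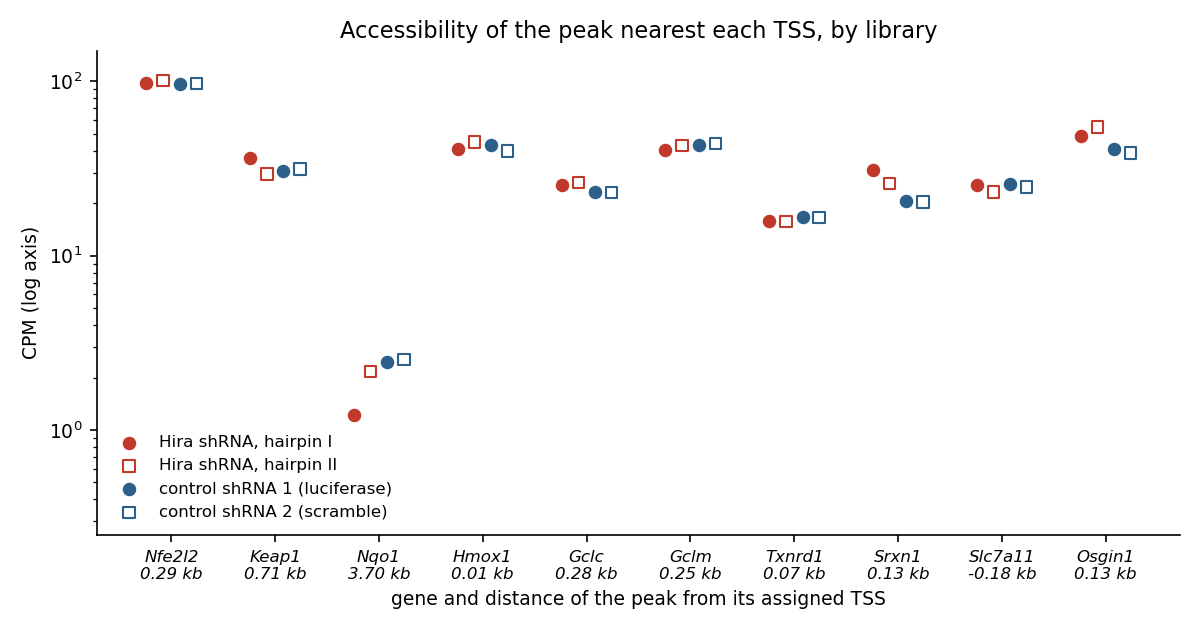
CPM (log axis) in each of the 4 libraries at the peak nearest the TSS of each gene, with the distance under the gene name. The libraries lie close together at most genes, and Nqo1 has the lowest level. The Hira libraries are above both controls at Nfe2l2, Gclc, Srxn1 and Osgin1 (34.5% of all peaks are). They are below both at Nqo1, Gclm and Txnrd1 (34.3% of all peaks are).

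Accessibility at the start sites spanned a wide range. Per kb of peak, the level at the peak nearest the TSS ran from 57.1 CPM per kb in Hira shRNA and 55.3 in control at Hmox1 down to 5.52 in Hira shRNA and 8.16 in control at Nqo1. Among the 12116 peaks within 1 kb of a TSS, the control levels per kb stood at the percentile 86.3 for Hmox1, 81.0 for Nfe2l2, 73.5 for Osgin1, 61.6 for Slc7a11, 59.9 for Gclc, 53.3 for Gclm, 53.0 for Txnrd1, 34.8 for Srxn1 and 21.8 for Keap1. The Nqo1 peak lay 3.70 kb from the TSS and no peak overlapped the Nqo1 promoter window. Of the nearest peaks within 1 kb of a TSS, Keap1 had the lowest level, 16.2 CPM per kb in Hira shRNA and 15.3 in control. A stronger peak at another Txnrd1 start is assigned to Gm38560 and is left out of this order. The percentile of Txnrd1 therefore describes its assigned peak only. The nearest peaks of Srxn1 and Osgin1 were called, and those of the other 8 genes were not. Among these 8 the Nqo1 peak had the largest fold change, described with that gene. In this order Gclm and Txnrd1, at 28.6 and 28.4 CPM per kb in Hira shRNA and 29.9 and 29.8 in control, were close to each other. The order depends on peak width. In plain CPM, Txnrd1 had the lowest control level of the nearest peaks within 1 kb (16.6) and Nfe2l2 the highest (97.0), with 30.9 at Keap1.

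Nfe2l2, the gene of NRF2, had an open start-site peak that differed little and a called gain inside its first intron. The start-site peak, 0.29 kb from the TSS at chr2:75703387-75705360, held 97.6 and 101 CPM under Hira hairpins I and II, against 96.6 and 97.4 CPM in the controls (log2 fold change 0.03, SE 0.06, adjusted p = 0.719). The intron 1 peak 19.0 kb downstream, at chr2:75685506-75685819, held 10.6 and 7.58 CPM under hairpins I and II, against 3.73 and 3.36 CPM in the controls. Both Hira libraries were above both controls, with means of 9.08 ± 2.11 CPM (SD, n = 2) in Hira shRNA and 3.55 CPM in control. The log2 fold change was 1.36 (SE 0.25, adjusted p = 0.0183 by edgeR), 2.56-fold. With the controls summed to 1 sample, the newer quasi-likelihood estimate kept this call and the likelihood ratio test did not (adjusted p = 0.0781). A stronger peak in the same intron, 21.5 kb downstream, held 39.3 and 39.3 CPM in the Hira libraries, against 41.2 and 37.9 CPM in the controls. The gain was at a weak site beside an open site where the libraries overlapped.

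Keap1, the adaptor that targets NRF2 for destruction, had 3 peaks and no call, and the Hira and control libraries overlapped at each. Its 5′ UTR peak 0.709 kb from the TSS, at chr9:21237613-21239633, held 36.1 and 29.5 CPM under Hira hairpins I and II, against 30.4 and 31.4 CPM in the controls. The hairpins lay on opposite sides of the controls (log2 fold change 0.09, SE 0.12, adjusted p = 0.615). The other peaks, 2.22 kb upstream and 18.1 kb downstream, had log2 fold changes of 0.06 and 0.04.

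Slc7a11 encodes the transport subunit of the cystine and glutamate exchanger, which supplies cysteine for glutathione, and a mutation of it dilutes yellow pigment in the subtle gray mouse. It had 16 peaks, the most of the set, and its changes lay away from the promoter. Within 10 kb of the TSS none of 4 peaks was called by edgeR's quasi-likelihood test or by DESeq2, and 1 had an unadjusted p under 0.05 and was called by the likelihood ratio test and limma-voom. Beyond 10 kb 6 of 12 were called, 2 higher and 4 lower, where 16.2% of all peaks were called higher and 13.6% lower. The promoter peak 0.181 kb upstream, at chr3:50443426-50444162, which spans the response elements printed above, held 25.5 and 23.2 CPM under Hira hairpins I and II, against 25.8 and 24.8 CPM in the controls. The groups overlapped there (log2 fold change -0.05, SE 0.11, adjusted p = 0.743).

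Both gains at Slc7a11 were at sites with few tags in the controls. The intergenic peak 13.1 kb upstream, at chr3:50456558-50456881, held 5.64 and 2.85 CPM under hairpins I and II, against 0.77 and 0.91 CPM in the controls (log2 fold change 2.41, SE 0.41, adjusted p = 0.0164). The peak 178 kb upstream, at chr3:50620888-50621439 in an RLTR13C1 retroviral repeat, held 6.25 and 3.14 CPM under hairpins I and II, against 1.41 and 0.60 CPM in the controls (log2 fold change 2.18, SE 0.49, adjusted p = 0.0293). Hairpin I gave the higher level at both sites, and without its library the log2 fold changes were 1.80 and 1.55. With the controls summed, the likelihood ratio test also called both (adjusted p = 0.00678 and 0.0138).

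The losses at Slc7a11 were in its body, beyond its end and far upstream. The intron 5 peak 21.6 kb downstream, at chr3:50421683-50422286, held 0.85 and 1.31 CPM under hairpins I and II, against 4.47 and 4.61 CPM in the controls, the largest loss of the set (log2 fold change -2.12, SE 0.32, adjusted p = 0.0138, 4.35-fold lower). The peak 155 kb upstream, at chr3:50598740-50599269 in an MLT1F1 repeat, held 3.40 and 6.73 CPM under hairpins I and II, against 15.2 and 13.9 CPM in the controls (log2 fold change -1.57, SE 0.32, adjusted p = 0.0227). Both losses were also called by the likelihood ratio test with the controls summed. The peak 109 kb upstream, at chr3:50552818-50553319, held 4.76 and 5.36 CPM under the hairpins, against 9.79 and 9.89 CPM in the controls (log2 fold change -0.97, SE 0.18, adjusted p = 0.0199). The peak 79.8 kb downstream, at chr3:50363468-50364072 in an RCHARR1 DNA repeat, held 10.9 and 19.3 CPM, against 27.6 and 30.3 CPM in the controls (log2 fold change -0.96, SE 0.26, adjusted p = 0.0476). These last calls were not made with the controls summed by the likelihood ratio test, where the adjusted p was 0.198 and 0.124. An exon 3 peak 8.22 kb downstream missed the threshold (adjusted p = 0.0618) with a log2 fold change of -1.19. Under the authors' scaling edgeR's quasi-likelihood test called it lower (log2 fold change -1.44, adjusted p = 0.00658), and the authors' deposited table called it down.

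**Figure D3:**
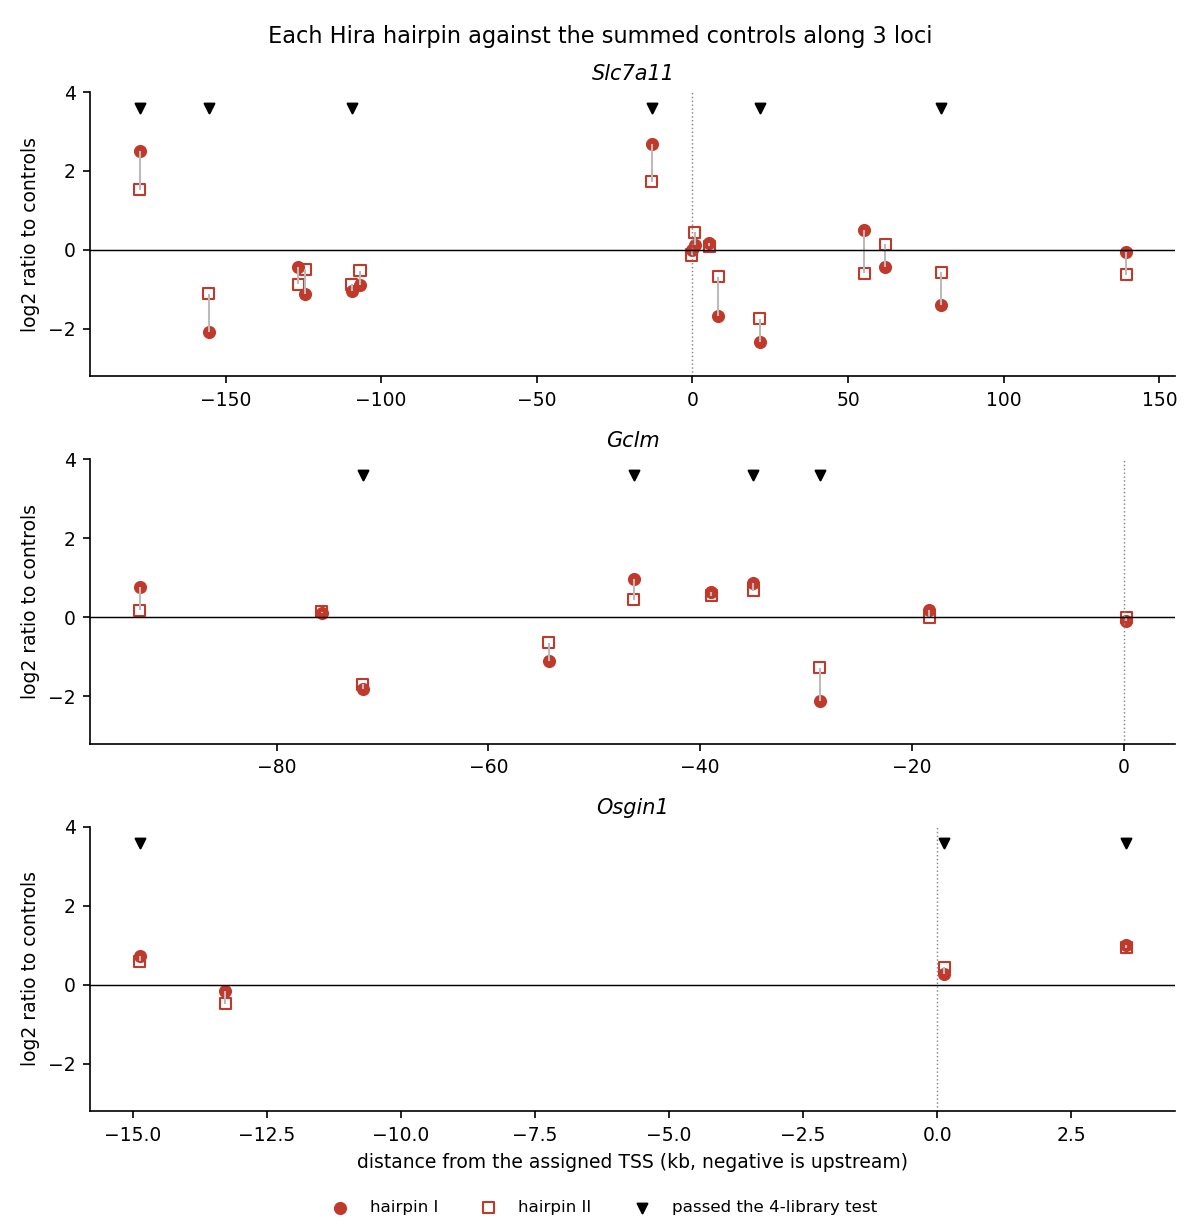
Log2 ratio of each Hira hairpin to the summed controls (prior of 2 tags) against the distance from the assigned TSS in kb, at Slc7a11, Gclm and Osgin1, with triangles over the called peaks. Peaks within 1 kb of the Slc7a11 and Gclm start sites lie close to 0 while distant ones lie on both sides. The Slc7a11 exon 3 peak 8.22 kb downstream lies below 0 for both hairpins, and 3 of the 4 Osgin1 peaks lie above 0 for both.

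Glutamate-cysteine ligase, the rate-limiting enzyme of glutathione synthesis, is a pair of a catalytic subunit (Gclc) and a modifier subunit (Gclm). Neither promoter peak was called, and both genes had called changes at distance. The Gclc start-site peak 0.275 kb from the TSS, at chr9:77754466-77755155, held 25.5 and 26.2 CPM in the Hira libraries, against 23.3 and 23.0 CPM in the controls (log2 fold change 0.16, SE 0.10, adjusted p = 0.282). The Gclm start-site peak 0.248 kb from the TSS, at chr3:122245079-122246531, held 40.3 and 42.9 CPM in the Hira libraries, against 43.0 and 44.0 CPM in the controls (log2 fold change -0.07, SE 0.08, adjusted p = 0.578). The Gclc libraries did not overlap, and in Gclm they were separated by less than the gap between the hairpins.

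The largest gain of the set was assigned to Gclc, 71.1 kb downstream of its TSS in intergenic DNA at chr9:77825385-77825854. It held 8.26 and 3.42 CPM under hairpins I and II, against 0.96 and 1.07 CPM in the controls (log2 fold change 2.57, SE 0.48, adjusted p = 0.0193, 5.94-fold). Both hairpins were above both controls, and hairpin I was the higher; without its library the log2 fold change was 1.76. The likelihood ratio test with the controls summed also called it (adjusted p = 0.00833). The other 6 Gclc peaks were not called and had log2 fold changes from -0.71 to 0.26.

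At Gclm all 4 called peaks lay upstream, and a pair of gains lay between a pair of losses. The peak 71.9 kb upstream, within intron 47 of Abca4 at chr3:122173442-122173932, held 0.88 and 0.97 CPM under hairpins I and II, against 3.21 and 3.33 CPM in the controls (log2 fold change -1.86, SE 0.27, adjusted p = 0.0132). The peak 28.7 kb upstream, in an L1M2 repeat at chr3:122216666-122217036, held 1.87 and 3.42 CPM, against 8.50 and 8.22 CPM in the controls (log2 fold change -1.70, SE 0.31, adjusted p = 0.0181). Both Hira libraries were below both controls at each, and the hairpins were closer to each other at the first site. The gains were weaker in fold and at more open sites. The peak 46.3 kb upstream at chr3:122198695-122199863 held 22.7 and 15.8 CPM under the hairpins, against 12.2 and 10.8 CPM in the controls (log2 fold change 0.75, SE 0.21, adjusted p = 0.0494). The peak 35.0 kb upstream at chr3:122210190-122210938 held 12.5 and 10.9 CPM, against 6.39 and 7.44 CPM in the controls (log2 fold change 0.77, SE 0.18, adjusted p = 0.0326). The losses were also called with the controls summed by the likelihood ratio test, and the gains were not (adjusted p = 0.285 and 0.317). Nor were the gains called under the authors' scaling.

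Txnrd1 encodes thioredoxin reductase, which regenerates thioredoxin with NADPH. None of its 3 peaks was called, and their log2 fold changes lay between -0.09 and 0.02. The promoter peak 0.074 kb from a TSS, at chr10:82860137-82860694, held 15.9 and 15.7 CPM in the Hira libraries, against 16.7 and 16.6 CPM in the controls (log2 fold change -0.07, SE 0.12, adjusted p = 0.703). A stronger peak at another Txnrd1 start, chr10:82858154-82859880, is assigned to the gene Gm38560 and so is outside the 59. It spans the response element of Txnrd1 printed above. It held 122 and 127 CPM in the Hira libraries, against 111 and 112 CPM in the controls, above both controls but not called (log2 fold change 0.16, SE 0.06, adjusted p = 0.106).

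Srxn1 encodes sulfiredoxin, which restores peroxiredoxins that have been over-oxidised. Its start-site peak, 0.133 kb from the TSS in the first exon at chr2:152105179-152106136, held 31.2 and 26.0 CPM under Hira hairpins I and II, against 20.5 and 20.3 CPM in the controls. Both Hira libraries were above both controls, with means of 28.6 ± 3.69 CPM (SD, n = 2) in Hira shRNA and 20.4 CPM in control. The log2 fold change was 0.49 (SE 0.13, adjusted p = 0.0403 by edgeR), 1.41-fold. The peak covers the whole promoter window, with all 3 of the response element matches given above. The call was not kept with the controls summed (adjusted p = 0.378 by the likelihood ratio test) or under the authors' scaling, where the log2 fold change was 0.22 (adjusted p = 0.516). The peak at the gene's end, 6.59 kb downstream, was not called (log2 fold change 0.06).

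Nqo1 encodes a quinone reductase and is a classical NRF2 target. None of its 4 peaks was called. The peak nearest its TSS, 3.70 kb downstream in intron 1 at chr8:107399354-107399660, held 1.22 and 2.17 CPM under hairpins I and II, against 2.46 and 2.54 CPM in the controls. Both Hira libraries were below both controls, with a spread between the hairpins wider than the gap to the controls (log2 fold change -0.62, SE 0.33, adjusted p = 0.217). The most open of the 4 peaks was in intron 5, with 16.5 and 16.2 CPM in the Hira libraries, against 18.4 and 16.7 CPM in the controls (log2 fold change -0.10).

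Hmox1 encodes haem oxygenase, which splits haem, and is held down by BACH1 as well as raised by NRF2. Its promoter peak, 0.015 kb from the TSS at chr8:75093258-75094008, held 40.8 and 44.9 CPM in the Hira libraries, against 43.3 and 39.9 CPM in the controls (log2 fold change 0.04, SE 0.09, adjusted p = 0.784). The groups overlapped at the promoter. A peak 3.97 kb upstream, at chr8:75089342-75089954, held 19.7 and 21.3 CPM under hairpins I and II, against 14.2 and 14.9 CPM in the controls. The Hira libraries were above the controls by 1.40-fold (log2 fold change 0.49, SE 0.13, adjusted p = 0.0412). This call was not kept with the controls summed (adjusted p = 0.479 by the likelihood ratio test) or under the authors' scaling, where the log2 fold change was 0.24 (adjusted p = 0.510).

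Osgin1 encodes an oxidative stress induced growth inhibitor. Of the genes of the set it had the largest share of its peaks called: 3 of 4, each higher in Hira shRNA. Over all peaks tested 25.3% were called, 14.4% of them all being higher calls. The ranking of Osgin1 was made after the counts had been seen, and its share rests on 4 peaks only. The strongest change was in intron 1, 3.52 kb downstream at chr8:119440300-119441037, where the Hira libraries held 46.0 and 43.9 CPM, against 24.0 and 21.7 CPM in the controls. The means were 44.9 ± 1.52 CPM (SD, n = 2) in Hira shRNA and 22.8 CPM in control, 1.97-fold (log2 fold change 0.98, SE 0.10, adjusted p = 0.0125). The hairpins were close to each other, and the groups lay far apart. Of the 17 called peaks this one had the smallest p; it was also called under the authors' scaling (log2 fold change 0.71, adjusted p = 0.0342) and with the controls summed by the likelihood ratio test (adjusted p = 0.00489).

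The 2 other gains at Osgin1 were smaller. The intergenic peak 14.9 kb upstream at chr8:119421819-119422740 held 64.8 and 58.7 CPM under hairpins I and II, against 40.2 and 37.5 CPM in the controls (log2 fold change 0.67, SE 0.09, adjusted p = 0.0125). The start-site peak, 0.13 kb from the TSS at chr8:119436803-119437751, covers the response element printed above and held 48.8 and 54.6 CPM, against 41.2 and 38.8 CPM in the controls (log2 fold change 0.37, SE 0.09, adjusted p = 0.0368). Under the authors' scaling neither was called: the log2 fold changes were 0.40 and 0.12. With the controls summed, the likelihood ratio test called the upstream peak (adjusted p = 0.0390) and not the start-site peak (adjusted p = 0.397). The peak 13.3 kb upstream was below both controls in both Hira libraries, with 22.4 and 17.8 CPM in the Hira libraries, against 25.7 and 24.2 CPM in the controls, and was not called (log2 fold change -0.30, SE 0.14, adjusted p = 0.178).

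**Figure D4:**
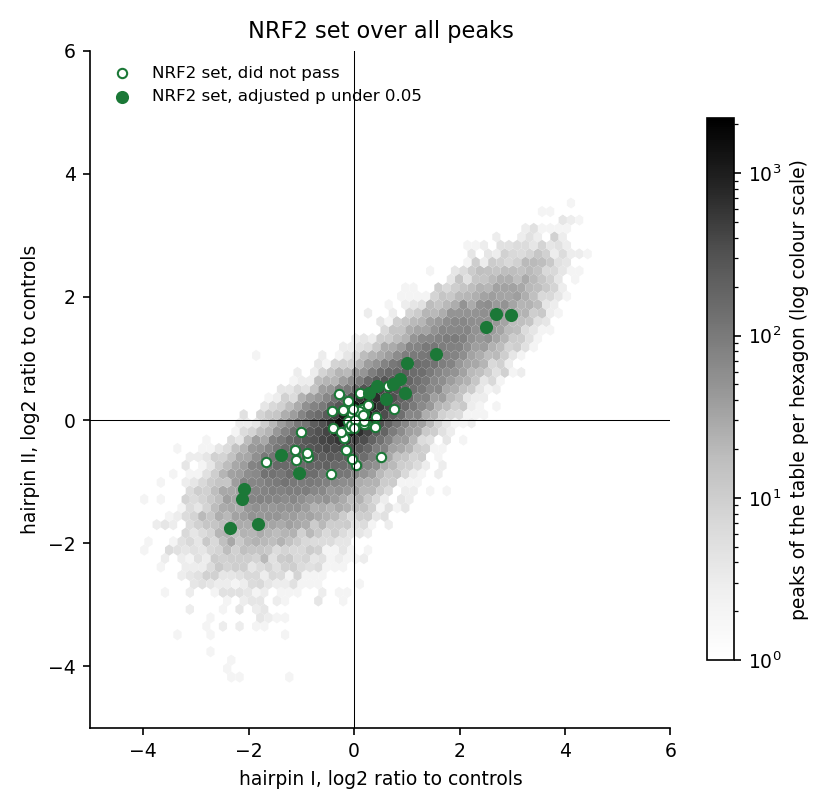
Log2 ratio to the summed controls (prior of 2 tags) under Hira hairpin II against hairpin I for each of the 59 peaks, over a grey density of all peaks. At the called peaks both hairpins have the same sign, and 4 peaks were at least 2-fold higher and 4 at least 2-fold lower under both.

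Both hairpins shared the direction at every called peak, which the test favours, and differed in size, as the plot of hairpin II against hairpin I shows. In the set 4 peaks were at least 2-fold higher under both hairpins, against 8.46% of all peaks, and 4 were at least 2-fold lower, against 6.01%. The authors' deposited calls use a stricter limit than the 17: they are the peaks with a deposited adjusted p under 0.01 and at least a 2-fold change. In the authors' deposited table, 11 of the 59 peaks carried a call, 4 up and 7 down, against 20.2% of all peaks (8.48% up and 11.8% down). Of these 11, 9 were among the 17. The authors' deposited table called up the distal peaks of Nfe2l2 and Gclc and both Slc7a11 gains. It called down 3 Gclm and 4 Slc7a11 peaks, and it called no peak at Osgin1, Srxn1 or Hmox1. Among the peaks of Osgin1, Srxn1 and Hmox1, the smallest deposited adjusted p (likelihood ratio test) was 0.0735, at the Osgin1 intron 1 peak. The deposited log2 fold change there was 0.72, under the 2-fold limit.

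A wider list of 48 partners, regulators and further targets of NRF2, with none of the 10 genes in it, was counted beside them. It had 223 peaks at 47 genes, of which 60 were called (26.9%), 37 higher and 23 lower, near the background of all peaks. By gene, 13 had only higher calls, 10 only lower, 5 both and 19 none. These counts by gene have no share over all genes beside them, and the genes differ in their number of peaks. Within 1 kb of a TSS 1 of 49 peaks was called higher and 1 lower, against 5.32% higher and 2.14% lower of all peaks at that distance. Under the authors' scaling the list had 28 higher and 36 lower calls, so its balance of directions turned with the scaling.

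Over all peaks 14.4% were called higher and 11.0% lower, and the counts by gene that follow were picked after their values had been seen. Bach2, a repressor that competes for the small MAF proteins, had 26 peaks, 10 of them called higher and none lower by edgeR's quasi-likelihood test (1 lower by the likelihood ratio test and limma-voom, 0 by DESeq2, and 1 at an unadjusted p under 0.05), and its relative Bach1 had 3 higher and 1 lower of 9. The Bach2 calls also depended on scaling. With the authors' scaling, the same edgeR test called the Bach2 peak 66 kb upstream lower (log2 fold change -0.82, adjusted p = 0.0353). It no longer called the peak 167 kb upstream higher (log2 fold change 0.38, adjusted p = 0.273). The small MAF genes Maff, Mafk and Mafg had 2 of 4, 1 of 3 and 1 of 3 peaks called higher. The Bach2 peak in intron 1, 23.2 kb downstream at chr4:32440356-32440984, held 17.9 and 13.3 CPM in the Hira libraries, against 2.13 and 1.48 CPM in the controls (log2 fold change 3.10, SE 0.27, adjusted p = 0.0125). The Mafk peak 1.84 kb upstream held 21.8 and 24.7 CPM in the Hira libraries, against 9.98 and 9.01 CPM in the controls (log2 fold change 1.28, SE 0.14, adjusted p = 0.0125). In both, the Hira libraries stood clear of the controls.

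Gpx4, which reduces lipid hydroperoxides with glutathione, was the other gene named for its p among the higher calls. Its peak 1.33 kb upstream held 13.5 and 14.1 CPM in the Hira libraries, against 4.31 and 4.30 CPM in the controls (log2 fold change 1.69, SE 0.17, adjusted p = 0.0125). The lower calls of smallest p were at Ephx1 (an epoxide hydrolase), Fyn (a Src family kinase) and Fth1 (the ferritin heavy chain). The Ephx1 peak 34.4 kb downstream held 4.28 and 4.96 CPM in the Hira libraries, against 11.9 and 12.7 CPM in the controls (log2 fold change -1.41, SE 0.19, adjusted p = 0.0126). The Fyn peak 28.4 kb downstream held 0.44 and 0.68 CPM in the Hira libraries, against 2.92 and 3.33 CPM in the controls (log2 fold change -2.57, SE 0.34, adjusted p = 0.0126). Fyn had 5 of 10 peaks called lower (11.0% of all peaks were), a count also picked after it was seen. The Fth1 peak 33.4 kb upstream held 23.5 and 21.6 CPM in the Hira libraries, against 36.8 and 36.5 CPM in the controls (log2 fold change -0.69, SE 0.10, adjusted p = 0.0128), and it was not called with the controls summed (adjusted p = 0.0901 by the likelihood ratio test).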

How the data were processed

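The 4 ATAC-seq libraries came from melb-a cells, 2 with Hira hairpins and 2 with control hairpins. Per the submitters' processing notes the build was mm10 and the tools were edgeR 3.38.4, MACS2 2.2.9.1, Picard, Bowtie2 and cutadapt 2.3; their roles, read filters and the merging of peaks are not given in the sources used here. Tags per peak were deposited by the authors as estimated counts in steps of 0.5, and were rounded to whole numbers before the count tests. The authors also deposited, per the file headers, log2 values (a mean log2 CPM and a fold change for each peak), a likelihood ratio score, and p-values with their adjustment. The authors' library scaling was recovered from their fold changes by least squares over 46005 peaks (residual SD 0.0142 log2). Reads from repeat copies may be shared between peaks, and how these were counted is not given.

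Peaks were tested with edgeR 4.0.16 in R 4.3.3 (quasi-likelihood, TMM, filterByExpr, group as the only term, two-sided, Benjamini-Hochberg adjustment over 70429 peaks). The SE is the size of the log2 change divided by the root of F. The prior in hairpin ratios was 2 tags. No genome was used, so motifs were searched only in RefSeq promoter windows and not in the peaks. The labels number the Hira hairpins, and the control numbers are in accession order, so no pairing is known; same-numbered libraries did not deviate together (r = -0.00727 across 70436 peaks). The 10 genes, the wider list and the rule for named peaks were chosen with earlier results of these data known. Named were the peak nearest each TSS, promoter peaks and called peaks of the 10 genes, and the 3 lowest p per direction in the wider list; the second peaks named beside these at Nfe2l2, Keap1, Nqo1, Txnrd1, Srxn1, Slc7a11 and Osgin1 were chosen after their values were seen. Summing the controls for the likelihood ratio test and the newer estimate was also chosen after seeing the data. The fit was tested on simulated data with the same spread in both groups. The Hira and control pairs here differ in spread, so that test checks the fitted fold changes and not the calls. Alternatives used DESeq2 1.42.0 and limma 3.58.1.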

Additional observations from a re-analysis of the deposited data

How the results depend on the processing

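The count of called peaks among the 59 (17) stayed between 13 and 22 under DESeq2's size factors or Wald test, total tags, the authors' scaling, no filter, the likelihood ratio test, limma-voom and the newer quasi-likelihood estimate. With the numbers of the libraries as a replicate block it was 18, of which 16 were among the 17. The block left the count of the wider list at 60 but not the calls themselves: 35 were higher and 25 lower, against 37 and 23. With the controls summed it was 0 by edgeR's quasi-likelihood test (12 at an unadjusted p under 0.05), 9 by the likelihood ratio test and 10 by the newer estimate. In the wider list these counts were 0 (48 at an unadjusted p under 0.05), 26 and 34, and DESeq2's Wald test gave 37. An adjusted p under 0.01 with a 2-fold change left 0 in both lists with edgeR's quasi-likelihood test, whose smallest adjusted p in the set was 0.0125. The quasi-likelihood test with the controls summed also called no peak over the whole table. Within 10 kb of a TSS the counts were 4 in the set and 19 in the wider list. With 1 library left out the count ran from 0 to 29 in the set and from 0 to 132 in the wider list. It was 0 in the set without either control library, where edgeR's quasi-likelihood test had 15 and 11 peaks at an unadjusted p under 0.05 without controls 1 and 2, and 46 and 45 in the wider list. Without hairpin I it was 25 and without hairpin II 29 in the set, since the spread then comes from the control pair alone.

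None of the 17 called peaks of the set changed direction under any of the 16 alternatives. The Hira and control libraries did not overlap at any of the 17, so leaving out 1 library could hardly turn them. Their kept direction was thus largely fixed by taking called peaks. Uncalled start-site peaks did change direction: under the authors' scaling the log2 fold change was -0.22 at Nfe2l2, -0.18 at Keap1, -0.21 at Hmox1 and -0.10 at Gclc. With 1 library left out it ran from -0.067 to 0.23 at Keap1, from -0.035 to 0.11 at Hmox1 and from -0.13 to 0.0067 at the Slc7a11 promoter peak. Depth is lowest under hairpin II, with a median of 54 tags per peak.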
